A study of Mus musculus with 9 samples.

Results

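The genes described here are 10 scavenger and C-type lectin receptors of mouse macrophages, out of 54059 genes measured: Mrc1, Olr1, Cd36, Msr1, Marco, Cd163, Clec7a, Clec4n, Clec4e and Clec4d. Mrc1, Olr1 and Cd36 were chosen on their expression differences between the groups compared below, so their values are a description and carry no test. The others were listed with them as receptors of the same families. RNA was sequenced from starch-elicited, adherent peritoneal macrophages of C57BL/6 mice aged 8 weeks, with 3 libraries in each of 3 groups. WT cells came from wild-type mice, and KO cells from M-Shp2-/- mice (SHP2lyz2-/- in the labels), in which Lyz2-cre deletes floxed Shp2, the gene Ptpn11, in myeloid cells. The SHP099 group held wild-type cells given SHP099, an allosteric SHP2 inhibitor, at 10 µM for 2 h beforehand. Cells of all 3 groups were then stimulated with imiquimod (IMQ, a TLR7 agonist) at 10 µg/ml for 4 h, so no group shows the receptors without IMQ. Nothing in the sources says that the 3 libraries of a group came from separate animals or cultures, so p-values measure the spread between these samples. Cells in which Lyz2 is not active keep the gene in KO mice.

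Scavenger receptors bind modified lipoproteins, bacteria and dying cells and carry them into the cell. Class A members (Msr1, Marco) take up polyanionic ligands, Cd36 of class B takes up oxidised lipoprotein and fatty acids, and Olr1 (LOX-1) is a lectin-like receptor for oxidised lipoprotein. C-type lectin receptors recognise sugars and glycolipids of microbes: Clec7a (dectin-1) binds beta-glucan, Clec4n (dectin-2) and Mrc1 (CD206) bind mannose-bearing glycans, and Clec4e (Mincle) and Clec4d (MCL) bind glycolipids of mycobacteria.

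Values are FPKM, fragment counts scaled for transcript length and library size, with 39843142 to 50981133 reads behind a library, a depth inferred from the steps between FPKM values. The targeted gene checks the labels. Ptpn11 FPKM was 45.8, 44.0 and 40.0 in WT replicates 1, 2 and 3, 18.6, 17.8 and 18.9 in KO and 43.0, 42.1 and 39.6 in SHP099. The KO libraries lay below all WT and SHP099 libraries, at 18.4 ± 0.590 against 43.3 ± 3.00 in WT (SD, 3 libraries each). KO against WT gave a log2 fold change of -1.19 with a standard error of 0.10 (limma adjusted p = 0.0168, lower in 3 of 3 libraries).

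KO replicate 3 stood apart from the other KO libraries. Across the 11450 genes tested, its log2 values correlated with KO replicates 1 and 2 at r = 0.967 and 0.954, below r = 0.992 between those 2 and r = 0.984 with SHP099 replicate 1; genes are not independent replicates, and no test was made. Some WT libraries also lay close to other groups. WT replicate 3 correlated with WT replicates 1 and 2 at r = 0.976 and 0.974 and with SHP099 replicate 3 at r = 0.978, and WT replicate 1 with KO replicates 1 and 2 at r = 0.986 and 0.988, above r = 0.984 with WT replicate 2. Each library was also left out in turn. The 9 fibroblast and mesothelial markers summed to 66.3, 309.9 and 41.3 in WT replicates 1, 2 and 3, 139, 52.8 and 594 in KO and 367, 142 and 103 in SHP099. KO replicate 3 was highest, and SHP099 replicate 1 and WT replicate 2 followed. Col1a1 was the most abundant gene of the list, which had 6 of 9 genes at a mean FPKM of at least 1 and none at 0 throughout. The 7 B cell markers summed to 16.6, 39.2 and 114 in WT replicates 1, 2 and 3, 61.8, 27.9 and 435 in KO and 53.3, 28.5 and 66.8 in SHP099, led by Igkc, with 4 of 7 genes at a mean FPKM of at least 1 and none at 0 throughout. KO replicate 3 again held the highest sum, which came mostly from Igkc and Ighm, whereas Pax5 and Cd79a were highest in KO replicate 1, at 5.06 and 3.18. Cd79a and Ms4a1 were lower in each SHP099 library than in every WT library. Fold changes of the receptor genes that include KO are given with and without KO replicate 3; the part of other cells in them was not tested.

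The 8 dendritic cell markers summed to 169, 81.9 and 58.8 in WT replicates 1, 2 and 3, 207, 273 and 17.1 in KO and 16.4, 20.6 and 21.6 in SHP099. This sum was low in the SHP099 libraries and in KO replicate 3, which did not overlap with the others. It came mostly from Itgax, at 162, 77.8 and 54.9 in WT replicates 1, 2 and 3, 199.6, 267 and 13.5 in KO and 14.9, 19.5 and 20.2 in SHP099. Ccr7 followed, at 5.04, 2.83 and 2.97 in WT replicates 1, 2 and 3, 5.80, 3.92 and 2.01 in KO and 0.714, 0.305 and 0.727 in SHP099, and Ccr7 and Itgax, like Flt3 and Clec9a at lower levels, were lower in each SHP099 library than in every WT library. Zbtb46 reached 1.21, in KO replicate 3, and Flt3, Cd209a, Xcr1, Clec9a and Siglech were under an FPKM of 1 in all libraries; 2 of 8 genes had a mean FPKM of at least 1 and none was at 0 throughout. The 10 macrophage markers all had a mean FPKM of at least 1, were led by Lyz2, and summed to 9821, 12614 and 10706 in WT replicates 1, 2 and 3, 7101, 7068 and 7747 in KO and 11293, 12511 and 13083 in SHP099. Lyz2, whose locus drives the cre in KO mice, made up most of the sum, at 7440.3, 10228 and 7951 in WT replicates 1, 2 and 3, 4863, 4743 and 5407 in KO and 9348, 10279.9 and 10715 in SHP099, and both it and the sum were lower in each KO library than in every WT and SHP099 library. The other 9 genes summed to 2381, 2386 and 2755 in WT replicates 1, 2 and 3, 2238, 2325 and 2340.4 in KO and 1945, 2231 and 2367 in SHP099, so that KO and SHP099 overlapped, with both below WT. Cd68, the most abundant of these 9, was highest in KO replicates 1 and 2 (1603 and 1739.5), and its SHP099 libraries lay below WT, whereas those of Csf1r lay above. The 8 resident peritoneal macrophage markers summed to 334, 762 and 304 in WT replicates 1, 2 and 3, 257, 149 and 878 in KO and 328, 154 and 196 in SHP099, led by Serpinb2, with 6 of 8 at a mean of at least 1; KO replicate 3 and WT replicate 2 were highest. Cd5l was lower and Icam2 higher in each SHP099 library than in every WT library. Gata6, which defines the resident cells, reached at most 2.97.

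Sums of 3 more lists lay lower in every SHP099 library than in every WT library, though not every gene in them did. The monocyte markers, with 5 of 8 at a mean FPKM of at least 1 and led by Chil3, summed to 143, 269 and 173 in WT replicates 1, 2 and 3, 71.4, 111 and 168 in KO and 76.8, 74.1 and 76.8 in SHP099. Chil3 and Vcan made up most of it and were lower in SHP099 than in WT without overlap. Ccr2 was higher in SHP099 without overlap, at 0.155, 0.400 and 0.506 in WT replicates 1, 2 and 3, 0.192, 0.161 and 0.575 in KO and 1.56, 0.671 and 1.03 in SHP099, and Ly6c2 and F13a1 overlapped. The mast cell and eosinophil markers, with 1 of 9 and led by Kit, summed to 6.49, 5.14 and 6.94 in WT replicates 1, 2 and 3, 3.48, 3.73 and 1.88 in KO and 0.712, 0.585 and 0.988 in SHP099. Here the KO libraries also lay below WT and above SHP099, at sums under 7 in all libraries, and Cpa3, Siglecf and Epx were under 1 throughout. The adipocyte markers, with 3 of 7 and led by Lpl, summed to 201, 109 and 116 in WT replicates 1, 2 and 3, 196, 241 and 67.5 in KO and 67.9, 90.4 and 84.1 in SHP099. Lpl and Pparg were lower in SHP099 than in WT without overlap, while Fabp4 overlapped, at 41.2, 25.7 and 31.2 in WT replicates 1, 2 and 3, 53.5, 64.2 and 32.9 in KO and 40.8, 47.6 and 47.7 in SHP099. Those 3 (Lpl, Fabp4 and Pparg) are genes macrophages also express, and Adipoq, Lep and Cidec were at 0. For T and NK cells, 0 of 9 reached a mean of at least 1, and the sums, led by Cd3g, were 1.05, 3.82 and 9.66 in WT replicates 1, 2 and 3, 0.425, 0.450 and 5.22 in KO and 7.55, 5.83 and 5.20 in SHP099. KO replicates 1 and 2 and WT replicate 1 were lowest, WT replicate 3 was highest, and WT and SHP099 overlapped. Cd3g, at 0.187, 0.415 and 1.05 in WT replicates 1, 2 and 3, 0.192, 0.110 and 0.762 in KO and 2.42, 1.27 and 1.43 in SHP099, and Cd3e were higher in each SHP099 library than in every WT library. The endothelial markers, with 2 of 8 and led by Vwf, summed to 39.6, 41.9 and 29.3 in WT replicates 1, 2 and 3, 51.0, 55.9 and 31.3 in KO and 49.3, 31.1 and 28.6 in SHP099, with overlap between the groups and with Emcn at 0. Kdr, at 4.76, 2.27 and 4.13 in WT replicates 1, 2 and 3, 3.25, 3.93 and 1.25 in KO and 1.30, 1.24 and 0.970 in SHP099, was lower in each SHP099 library than in every WT library, as were Cdh5 and Flt1. The neutrophil markers, with 2 of 10 and led by S100a8, summed to 39.1, 97.1 and 60.7 in WT replicates 1, 2 and 3, 42.9, 41.1 and 102 in KO and 51.6, 57.5 and 77.4 in SHP099, with overlap between the groups. S100a9, which reached at most 1.11, was lower in each SHP099 library than in every WT library, and Ly6g, Cxcr2, Mpo and Elane stayed under 1 throughout. The part of these cells in the receptor differences was not tested. In bulk RNA, fewer cells of a type and less RNA per cell cannot be told apart.

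Among the scavenger receptors, Msr1, a class A receptor (chromosome 8, GRCm38, chr8:39581685-39642673, minus strand), gave an FPKM of 366, 314 and 303 in WT replicates 1, 2 and 3, 254, 251 and 185 in KO and 152, 127 and 179 in SHP099. The KO libraries all lay below the WT libraries, and the SHP099 libraries below the KO libraries. The mean in SHP099 was below WT, going from 328 ± 33.6 to 153 ± 25.7 (SD, 3 libraries each). On the log2 scale that was -1.11 with a standard error of 0.14 (limma adjusted p = 0.0129, lower in 3 of 3 libraries). All fold changes are on the log2(FPKM + 1) scale. In KO against WT it was -0.52 (limma adjusted p = 0.454), short of the threshold, and -0.37 without KO replicate 3.

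Marco, the other class A receptor (chromosome 1, chr1:120474538-120505024, minus strand), gave 38.6, 111 and 27.0 in WT replicates 1, 2 and 3, 51.6, 33.9 and 274 in KO and 135, 181 and 218 in SHP099. Its SHP099 libraries lay above the WT libraries, while KO replicates 1 and 2 lay within the WT range and KO replicate 3 was the highest of the 9 libraries. The log2 fold change was 1.82 in SHP099 against WT (standard error 0.48, limma adjusted p = 0.0661), which missed 0.05. Without WT replicate 2 it was 2.40 (limma adjusted p = 0.0130, range 0.0130 to 0.229 over the alternatives). In KO against WT the value of 0.67 (limma adjusted p = 0.699) became -0.22 without KO replicate 3. It was 0.37 without KO replicate 3 and WT replicate 2, left out together after the data were seen. KO replicate 3 also held the highest sum of fibroblast markers, and WT replicate 2, with the highest Marco in WT, the highest in WT. In SHP099 the library with the highest fibroblast sum, replicate 1, had the lowest Marco. The part of these cells was not tested.

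Cd36, the class B receptor (chromosome 5, chr5:17781690-17888801, minus strand), gave 319, 233 and 198 in WT replicates 1, 2 and 3, 265, 299 and 264 in KO and 156, 146 and 126 in SHP099. Its SHP099 libraries lay below every WT and KO library, and WT and KO overlapped. KO replicate 3 did not depart from its group here, unlike at Mrc1, Olr1 and Marco. Mean FPKM was 250.0 ± 61.9 in WT, 276 ± 20.2 in KO and 142 ± 15.4 in SHP099 (SD, n = 3), and the log2 fold changes were 0.17 in KO (0.20 without KO replicate 3) and -0.79 in SHP099 against WT.

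Olr1, the lectin-like receptor for oxidised lipoprotein (chromosome 6, chr6:129485244-129507165, minus strand), gave 230.2, 254 and 193 in WT replicates 1, 2 and 3, 149.6, 184 and 84.0 in KO and 69.4, 50.4 and 63.3 in SHP099. The SHP099 libraries were lowest, the KO libraries lay between and below WT, and KO replicate 3 was closest to SHP099. Mean FPKM was 226 ± 30.9 in WT, 139 ± 50.9 in KO and 61.0 ± 9.72 in SHP099 (SD, n = 3). The log2 fold changes were -0.76 in KO, -0.43 without KO replicate 3, and -1.87 in SHP099. Cd163, the haemoglobin scavenger receptor (chromosome 6, chr6:124304656-124330527, plus strand), gave 0.0640, 0.228 and 0.0667 in WT replicates 1, 2 and 3, 0.0538, 0.0314 and 0.708 in KO and 0.370, 0.110 and 0.182 in SHP099. All 9 libraries were under 1, the groups overlapped, and KO replicate 3 was highest. Cd163 failed the filter on low values and was not tested.

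Among the C-type lectins, Mrc1, the macrophage mannose receptor (chromosome 2, chr2:14229392-14332057, plus strand), gave 61.5, 43.8 and 43.5 in WT replicates 1, 2 and 3, 59.8, 71.2 and 19.4 in KO and 10.3, 10.1 and 9.79 in SHP099. The SHP099 libraries were lowest, with an SD of 0.251, KO replicates 1 and 2 overlapped with WT, and KO replicate 3 fell between WT and SHP099. The mean in SHP099 was 4.93-fold below WT. The log2 fold change was -2.18 in SHP099 and -0.16 in KO against WT, and the latter turned to 0.41 without KO replicate 3 and to 0.0014 without WT replicate 1.

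Clec7a, the beta-glucan receptor (chromosome 6, chr6:129461591-129472779, minus strand), gave 438, 334 and 319.8 in WT replicates 1, 2 and 3, 237, 288 and 134 in KO and 121, 63.7 and 108 in SHP099. The order was WT, KO, SHP099 from high to low, with no overlap between neighbours in that order. The mean went from 364 ± 64.7 in WT to 97.6 ± 30.0 in SHP099 (SD, 3 libraries each). On the log2 scale that was -1.93 with a standard error of 0.25 (limma adjusted p = 0.0131, lower in 3 of 3 libraries). KO against WT gave -0.78 (limma adjusted p = 0.465) and -0.46 without KO replicate 3. The annotation classes Clec7a as a polymorphic pseudogene, although the gene is expressed here.

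The glycolipid receptors were the most abundant. Clec4e (chromosome 6, chr6:123281789-123289870, minus strand) gave 3331, 3573 and 3252 in WT replicates 1, 2 and 3, 3719, 3789 and 4135 in KO and 4517, 4732 and 4730.2 in SHP099. The SHP099 libraries lay above the KO libraries, and the KO libraries above WT. The log2 fold change was 0.46 in SHP099 against WT (standard error 0.10, limma adjusted p = 0.0413, higher in 3 of 3 libraries), and 0.20 in KO (limma adjusted p = 0.507). The adjusted p in SHP099 against WT stayed at most 0.05 in 8 of 17 alternatives (range 0.0263 to 0.246). It was above 0.05 without WT replicate 1 or 2 or any 1 of the SHP099 replicates, at limma adjusted p = 0.0985, 0.0619, 0.141, 0.178 and 0.121. The same held with no filter, median-of-ratios scaling, quantile normalization and a replicate block (limma adjusted p = 0.240, 0.246, 0.0623 and 0.0804).

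Clec4d, its neighbour and partner (chromosome 6, chr6:123262111-123275265, plus strand), gave 956, 1092 and 1179.7 in WT replicates 1, 2 and 3, 1019, 911 and 1724 in KO and 1247, 1521 and 1535 in SHP099. SHP099 lay above WT, whereas KO replicates 1 and 2 overlapped with WT and KO replicate 3 was the highest library. Its log2 fold changes were 0.41 in SHP099 (limma adjusted p = 0.0914) and 0.13 in KO (limma adjusted p = 0.803). With quantile normalization the value in SHP099 was 0.58, at limma adjusted p = 0.0377, the only 1 of 17 alternatives at 0.05 or under (range 0.0377 to 0.425). The KO value turned to -0.15 without KO replicate 3 and to -0.031 with median-of-ratios scaling. Clec4n (chromosome 6, chr6:123229843-123247021, plus strand) gave 31.7, 26.3 and 17.4 in WT replicates 1, 2 and 3, 58.9, 35.0 and 36.0 in KO and 54.8, 32.5 and 44.2 in SHP099. Every KO and SHP099 library exceeded every WT library, with log2 fold changes of 0.76 and 0.79 (limma adjusted p = 0.465 and 0.106), and neither passed, also under the alternatives.

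**Figure D1:**
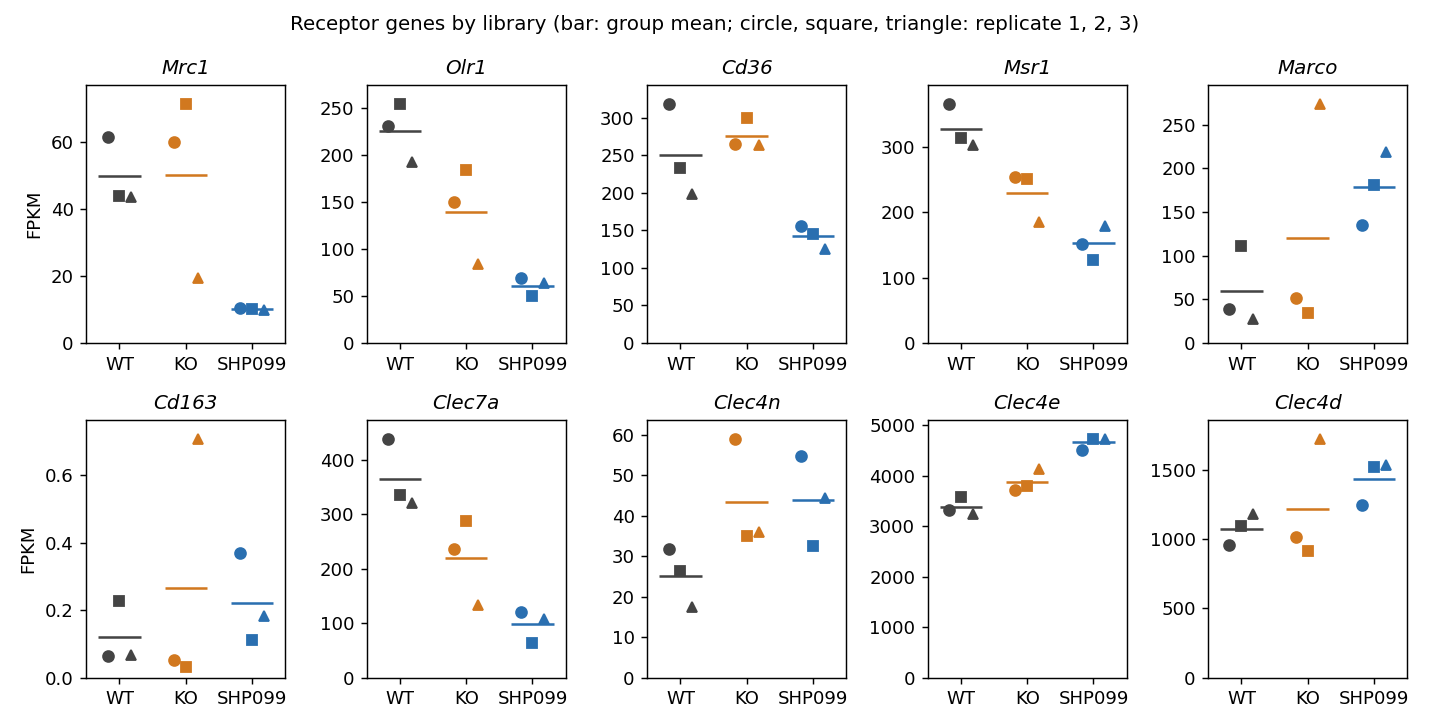
FPKM of each receptor gene (vertical axis, from 0, own scale for each gene) in the 9 libraries of WT, KO and SHP099; symbols mark replicates 1, 2 and 3 and bars the group means. The SHP099 libraries sit lowest for Mrc1, Olr1, Cd36, Msr1 and Clec7a, and KO replicate 3 departs from its group for Mrc1, Olr1, Clec7a, Marco and Clec4d.

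Levels per length were ranked within each group by mean FPKM, with Clec4e first, Clec4d next and Cd163 last in all 3. In WT the others followed as Clec7a (364), Msr1 (328), Cd36 (250.0), Olr1 (226), Marco (59.0), Mrc1 (49.6) and Clec4n (25.1). Libraries of neighbours in that order overlapped, except between Olr1 and Marco and between Mrc1 and Clec4n. In KO the order was Cd36 (276), Msr1 (229.8), Clec7a (219.8), Olr1 (139), Marco (119.7), Mrc1 (50.1) and Clec4n (43.3), and all neighbours overlapped except Cd36 and Msr1. In SHP099 it was Marco (178), Msr1 (153), Cd36 (142), Clec7a (97.6), Olr1 (61.0), Clec4n (43.9) and Mrc1 (10.1). Neighbours overlapped there except between Cd36 and Clec7a and between Clec4n and Mrc1.

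Of the 10 receptor genes, 9 passed the filter of a mean FPKM of at least 1. Of these 9, Mrc1, Olr1 and Cd36 were chosen on such differences, so counts are given over the other 6, set apart after the data were seen, and nothing is read from their distance to the shares of all genes. With SHP099 against WT, limma called 0 of 6 (adjusted p up to 0.005, with a log2 fold change of 1 or more in size), against 0.166% of all genes tested, and voom on recovered reads called 0, while 6 of 6 had an unadjusted p under 0.05, against 26.7% of all genes. With adjusted p up to 0.05 and the same fold, limma gave 2 of 6 lower (Msr1 and Clec7a), against 1.19% of all genes, and 0 of 6 higher, against 0.533%. Without overlap between the groups, 2 of 6 were lower (Msr1 and Clec7a), against 6.77% of all genes, and 4 of 6 higher (Marco, Clec4n, Clec4e and Clec4d), against 27.9%. Over the alternative settings, Msr1 kept a limma adjusted p of at most 0.05 in 14 of 17 (range 0.0111 to 0.0664) and Clec7a in 16 of 17 (range 0.0114 to 0.0726). Msr1 passed 0.05 no longer without SHP099 replicate 1 or 2, at limma adjusted p = 0.0551 and 0.0537, and neither passed it with no filter on low FPKM, at 0.0664 and 0.0726. Without WT replicate 3 both stayed under it, at 0.0134 and 0.0153.

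With KO against WT, limma called 0 of 6 of these receptor genes, against 0.00873% of all genes, and voom 0, and 3 of 6 had an unadjusted p under 0.05, against 10.5% of all genes. With adjusted p up to 0.05 and the same fold, 0 of 6 were lower and 0 of 6 higher, against 0.0786% and 0% of all genes. Msr1 and Clec7a were lower without overlap (2 of 6, against 3.07% of all genes), and Clec4n and Clec4e higher (2 of 6, against 16.0%). Without KO replicate 3, limma again called 0 of 6, and Clec4n and Clec4e had log2 fold changes of 0.87 and 0.15. The median log2 fold change of all genes was 0.15 in this comparison and 0.13 in SHP099 against WT. Relative to that median, KO against WT gave -0.90 for Olr1, -0.93 for Clec7a, -0.67 for Msr1, 0.61 for Clec4n, 0.049 for Clec4e and -0.021 for Clec4d. SHP099 against WT gave -2.30 for Mrc1, -1.23 for Msr1, -2.05 for Clec7a and 0.33 for Clec4e. Both comparisons share the WT libraries.

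The direct comparison of SHP099 with KO asks whether inhibition and gene loss left different levels. Of the same receptor genes, limma called 0 of 6, against 0% of all genes, and voom 0, and 3 of 6 had an unadjusted p under 0.05, against 12.6% of all genes. With adjusted p up to 0.05 and the same fold, 0 of 6 were lower and 0 of 6 higher, against 0.0262% and 0.0349%. Without overlap, 2 of 6 were lower in SHP099 (Msr1 and Clec7a), against 7.90% of all genes, and 1 of 6, Clec4e, higher, against 9.76%. Without KO replicate 3, which left 2 KO libraries, 1 of 6 was called, Marco, against 1.39% of all genes, or 159 genes where the fit with all libraries called 0. Mrc1 went from -2.02 to -2.58, Olr1 from -1.12 to -1.44, Cd36 from -0.96 to -0.99 and Clec4n from 0.028 to -0.082. Marco then had a log2 fold change of 2.04 (limma adjusted p = 0.00453, range 0.00453 to 0.889 over the alternatives), against 1.14 (limma adjusted p = 0.538) with it. Clec7a went from -1.14 to -1.46 and Msr1 from -0.59 to -0.74, with limma adjusted p = 0.0154 and 0.0158 without KO replicate 3 (ranges 0.0154 to 0.749 and 0.0158 to 0.749). Clec4e and Clec4d were then 0.31 and 0.57, under the fold threshold, with limma adjusted p = 0.0399 and 0.0207 (ranges 0.0399 to 0.880 and 0.0207 to 0.950), against 0.27 and 0.29 with all libraries.

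**Figure D2:**
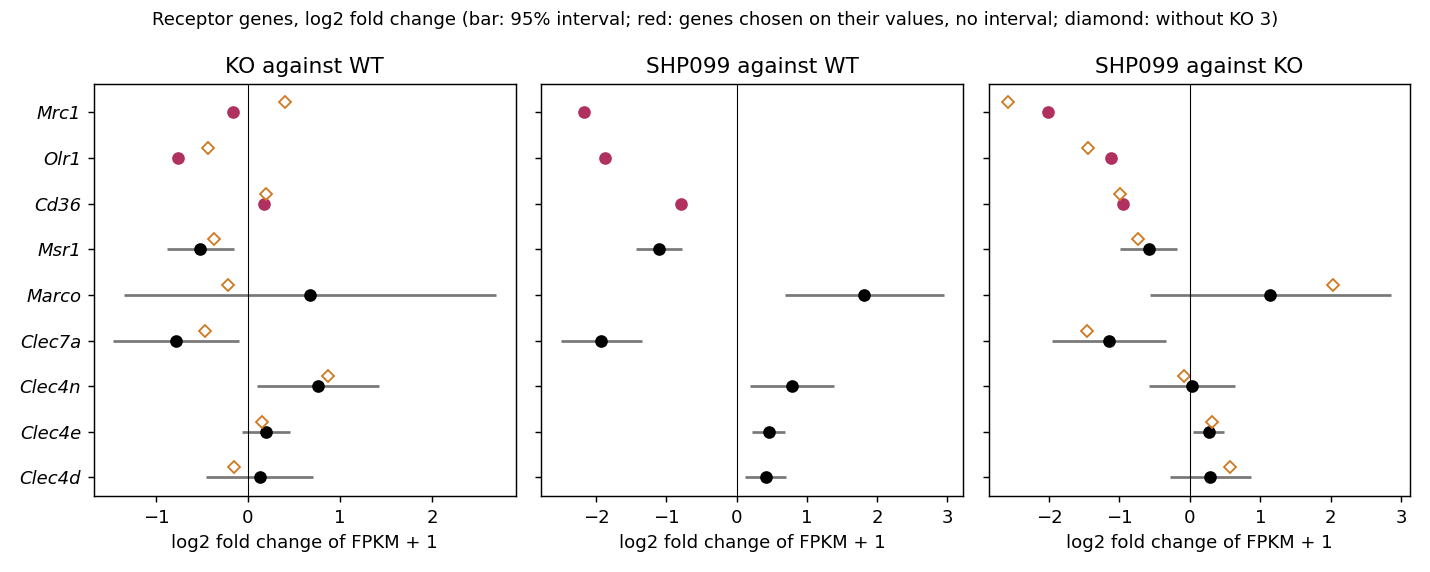
Log2 fold change of FPKM + 1 (horizontal axis) of the 9 receptor genes tested, in 3 comparisons; points are limma estimates, bars 95% intervals, red points the genes chosen on their values (no interval), and open diamonds the estimates without KO replicate 3. Marco lies at 0.67 in KO against WT with KO replicate 3 and at -0.22 without it.

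**Figure D3:**
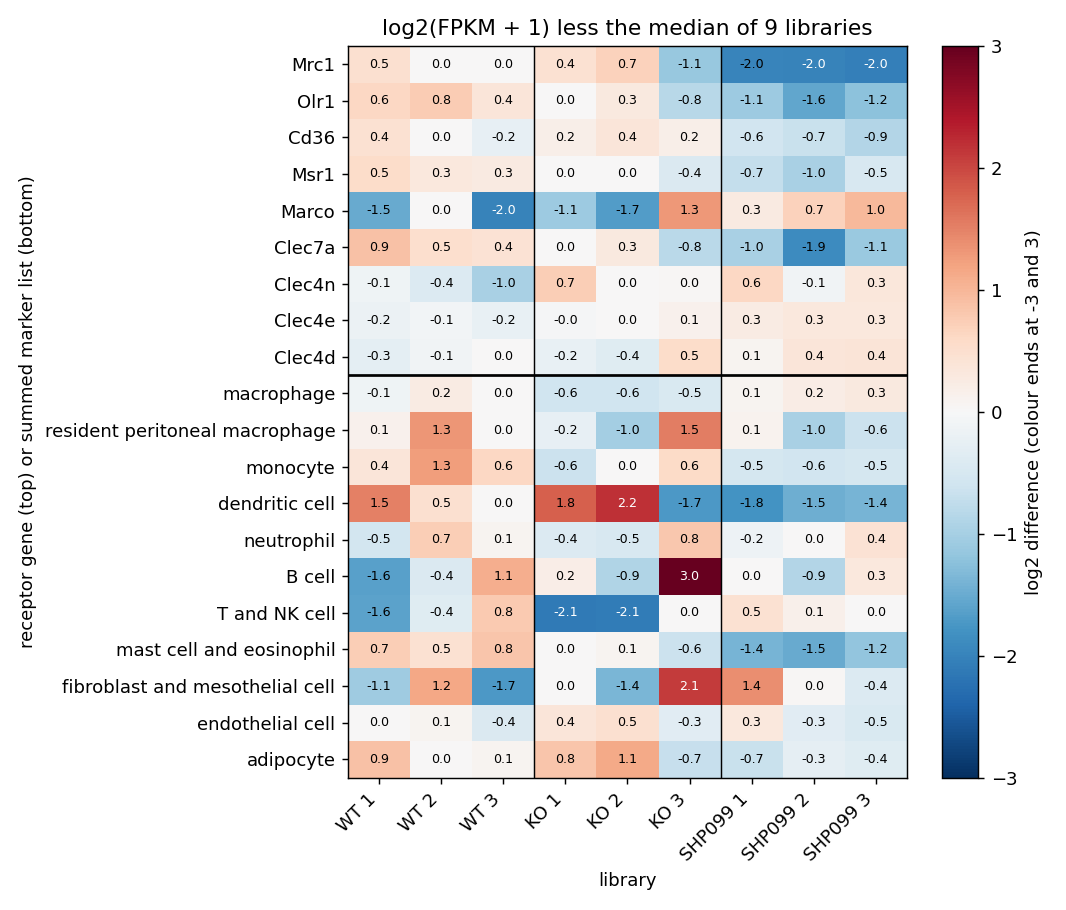
Log2(FPKM + 1) of each receptor gene and of each summed marker list, less the median of its 9 libraries (colour and printed value; genes or lists down the side, libraries along the foot). KO replicate 3 resembles the SHP099 columns at Mrc1, Olr1, Clec7a, Marco and the dendritic cell list, whose sum came mostly from Itgax. KO replicate 3 also holds the highest fibroblast and B cell sums.

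By chromosome, 6 of the 10 receptor genes lie on chromosome 6, in positions that the choice of genes did not use. Clec4n, Clec4d and Clec4e sit within 60.0 kb, and Clec7a and Olr1 within 45.6 kb. The first 3 were higher with SHP099 than in WT without overlap and the other 2 lower. Within 100 kb of the first cluster, 1 of 4 neighbours was tested: Clec4a2, another lectin receptor gene, had a log2 fold change of 0.10 in SHP099 against WT (limma adjusted p = 0.620), while Clec4b2, Vmn2r19 and Vmn2r20 were under 1. Around the other cluster, 2 of 9 were tested. Clec12a, an inhibitory lectin receptor, gave 42.9, 36.4 and 45.4 in WT replicates 1, 2 and 3, 29.1, 33.8 and 18.7 in KO and 19.1, 28.1 and 36.0 in SHP099. Its log2 fold change was -0.61 (limma adjusted p = 0.132). Gabarapl1, an autophagy gene separated from Olr1 by Tmem52b, gave 132, 130.5 and 137 in WT replicates 1, 2 and 3, 157, 165 and 186 in KO and 204, 227 and 187 in SHP099. It was higher in each SHP099 library than in every WT library, at a log2 fold change of 0.62 (limma adjusted p = 0.0177), opposite in sign to Olr1. Clec12b, Clec1b, Clec9a, Clec1a, Tmem52b, Klre1 and Klrd1 were under 1. No exon of the receptor genes overlapped an exon of another annotated gene; reads from similar lectin genes may still be split between them.

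**Figure D4:**
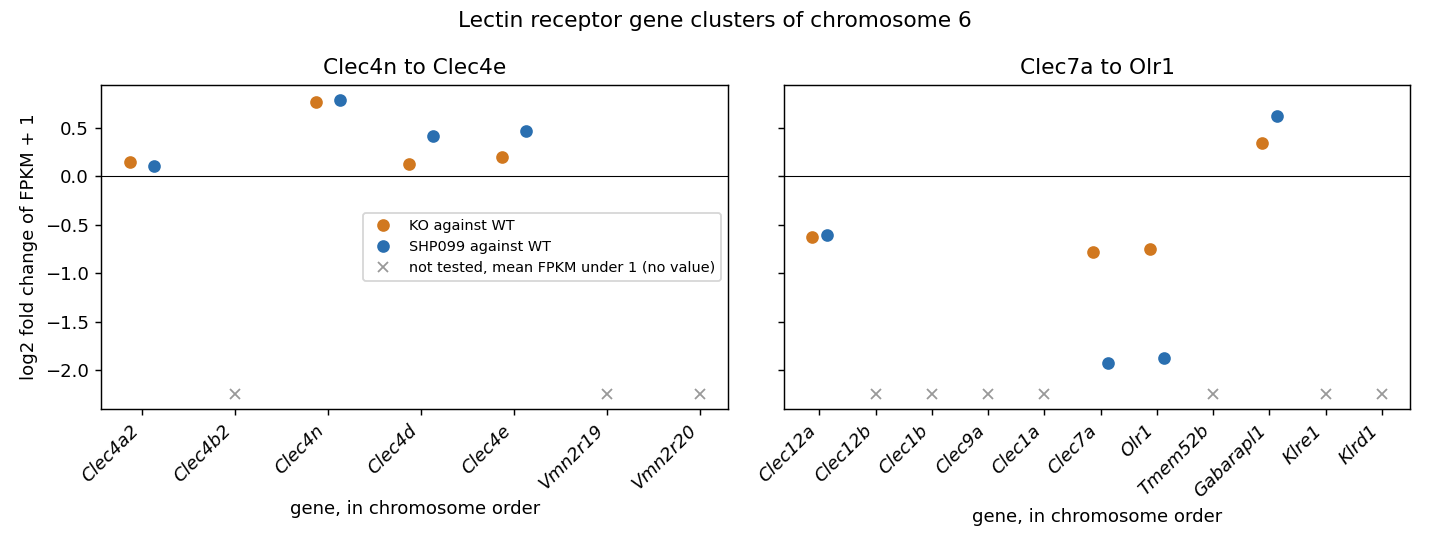
Log2 fold change of FPKM + 1 (vertical axis) against WT for genes of both chromosome 6 clusters in chromosome order; crosses at the foot mark genes not tested, which have no value. Clec7a and Olr1 lie at -1.93 and -1.87 with SHP099, and Gabarapl1, in the same cluster, at 0.62.

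Promoter sequence is shown for the receptor genes with an entry whose SHP099 libraries all lay below WT (Mrc1, Olr1, Cd36 and Clec7a), and for Marco, whose SHP099 libraries lay above WT without passing the test. Of the 10 genes, 8 had an entry in the RefSeq table (GRCm38.p6), and Msr1 and Clec4n had none. Each line gives the 250 bases before the RefSeq start, 5′ to 3′ on the strand of the gene. Capitals mark matches on either strand to GAGGAA, the core of PU.1 sites, or to TGANTCA, an AP-1 site. The windows are chr2:14229164-14229413, plus strand, for Mrc1; chr6:129507166-129507415, minus strand, for Olr1; chr5:17835897-17836146, minus strand, for Cd36; chr6:129472780-129473029, minus strand, for Clec7a; and chr1:120505025-120505274, minus strand, for Marco.
Mrc1: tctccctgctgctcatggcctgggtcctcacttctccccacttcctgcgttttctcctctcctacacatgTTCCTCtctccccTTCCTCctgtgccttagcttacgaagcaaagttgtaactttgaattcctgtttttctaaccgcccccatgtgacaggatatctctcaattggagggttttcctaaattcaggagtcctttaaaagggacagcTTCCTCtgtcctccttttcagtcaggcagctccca
Olr1: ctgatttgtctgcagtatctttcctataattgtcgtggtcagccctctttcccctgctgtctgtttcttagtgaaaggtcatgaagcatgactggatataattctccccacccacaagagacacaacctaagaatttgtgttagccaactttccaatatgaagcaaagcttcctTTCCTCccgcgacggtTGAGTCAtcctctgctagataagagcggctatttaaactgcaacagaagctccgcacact
Cd36: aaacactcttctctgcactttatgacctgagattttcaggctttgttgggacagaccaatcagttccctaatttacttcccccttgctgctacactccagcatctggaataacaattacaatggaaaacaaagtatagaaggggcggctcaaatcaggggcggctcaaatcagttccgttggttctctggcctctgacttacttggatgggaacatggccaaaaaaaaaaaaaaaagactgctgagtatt
Clec7a: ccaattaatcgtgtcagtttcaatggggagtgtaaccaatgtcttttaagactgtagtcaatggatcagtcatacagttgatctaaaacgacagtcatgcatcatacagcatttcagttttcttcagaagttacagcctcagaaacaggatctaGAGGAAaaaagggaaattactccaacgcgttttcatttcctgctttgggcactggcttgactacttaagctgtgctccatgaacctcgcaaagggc
Marco: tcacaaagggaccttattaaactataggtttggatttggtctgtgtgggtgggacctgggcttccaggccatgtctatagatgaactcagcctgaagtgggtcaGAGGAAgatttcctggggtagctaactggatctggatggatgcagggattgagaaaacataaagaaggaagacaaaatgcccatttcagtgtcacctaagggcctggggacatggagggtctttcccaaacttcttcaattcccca
The PU.1 core was in 6 of the 8 receptor promoters, against 23.3% of all 32851 promoters of the same length. It occurred in Mrc1, Olr1, Clec7a, Marco, Clec4d and Clec4e, so in genes with lower and in genes with higher SHP099 libraries, and 3 times in Mrc1. The Cd36 window held none of the motifs searched. It lies inside the annotated gene span, before an internal start, and sequence before the 5′ end of that span was not searched. The AP-1 letters were in 1 of 8, Olr1, against 6.75% of all promoters. The C/EBP letters TTGCNNAA were in 1 of 8, Clec4e, against 9.56%, and an NF-kB motif in 0 of 8, against 7.25%. No matches overlapped each other in the printed windows. A match is a stretch of letters and not a shown site.

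Related genes were counted from lists, with limma adjusted p up to 0.05 and a log2 fold change of 1 or more in size. With adjusted p up to 0.005, limma called 0 genes of these lists in the 3 comparisons; with SHP099 against WT the lists, in the order given here, had 5, 6, 7, 7 and 8 genes at an unadjusted p under 0.05, against 26.7% of all genes. The counts below for that comparison stand beside 1.19% of all genes lower and 0.533% higher at the same thresholds. Of 23 other scavenger receptors, 22 were matched and 12 tested. With SHP099 against WT, 1 of 12 was lower and 0 higher: Axl, a receptor for dying cells, with 62.4, 42.9 and 64.8 in WT replicates 1, 2 and 3, 58.0, 56.4 and 29.5 in KO and 23.0, 12.7 and 12.8 in SHP099. The SHP099 libraries were lowest, KO replicate 3 was next, and the log2 fold change was -1.78 (limma adjusted p = 0.0175). Cd68, a lysosomal scavenger receptor, and Cd14, a co-receptor for lipopolysaccharide, were the most abundant, with log2 fold changes of -0.14 and -0.43 (limma adjusted p = 0.395 and 0.222). Cd5l had -0.97 (limma adjusted p = 0.0567). The median of the list was -0.018.

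Of 34 other C-type lectin receptors, 13 were tested, and 1 was lower and 0 higher with SHP099: Klra2, with 6.73, 6.73 and 5.98 in WT replicates 1, 2 and 3, 4.19, 4.31 and 2.63 in KO and 2.42, 1.56 and 3.67 in SHP099. Its log2 fold change was -1.12 (limma adjusted p = 0.0346), and its KO libraries also lay below WT. Ly75 (DEC-205) and Cd302 were higher by less than the fold threshold, at 0.61 and 0.67 (limma adjusted p = 0.0236 and 0.0222). Clec2d and Clec4a3 had 0.18 and 0.78 (limma adjusted p = 0.693 and 0.104). The median of the list was 0.10, beside 0.13 over all genes.

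Clec4e and Clec4n signal through the adaptor Fcer1g, and Clec7a through a motif in its own tail, and these routes use Src-family kinases, Syk and Card9. All 18 genes of this chain were tested, and 1 was lower and 0 higher with SHP099. Src, with 68.3, 76.7 and 76.9 in WT replicates 1, 2 and 3, 50.3, 47.8 and 39.9 in KO and 28.9, 29.0 and 37.6 in SHP099, had no overlap between WT, KO and SHP099. Its log2 fold change was -1.20 in SHP099 (limma adjusted p = 0.00769) and -0.68 in KO (limma adjusted p = 0.277). Prkcd, Vav3 and Lyn were lower by less than the fold threshold, with log2 fold changes of -0.49, -0.54 and -0.46 (limma adjusted p = 0.0236, 0.0351 and 0.0385). The adaptors Fcer1g and Tyrobp, the most abundant, had -0.12 and -0.23 (limma adjusted p = 0.533 and 0.345). The median of the chain was -0.087.

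Mrc1 is often used as a marker of alternative activation, the state that interleukin-4 induces. Of 19 genes of that state, 13 were tested, and 2 were lower and 0 higher with SHP099. Retnla gave 7.16, 20.7 and 2.83 in WT replicates 1, 2 and 3, 10.2, 12.4 and 1.10 in KO and 0.267, 0.294 and 0.610 in SHP099. Its SHP099 libraries were all under 1 and below every other library, with KO replicate 3 next, at a log2 fold change of -2.67 (limma adjusted p = 0.0390). Chil3 had -1.32 and Irf4, under the fold threshold, -0.84 (limma adjusted p = 0.0322 and 0.0490). Mean Irf4 FPKM was 1.43 in WT and 0.356 in SHP099, or 4.03-fold lower. At such low levels the log2(FPKM + 1) scale gives a smaller change. Ccl22 had -1.63 (limma adjusted p = 0.0608), while Tgm2 and Stat6, the most abundant, had 0.094 and -0.038 (limma adjusted p = 0.445 and 0.820). The median of the list was -0.85.

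Of 18 transcription factors known at these genes, 17 were tested, and 1 was lower and 1 higher with SHP099. Nr1h3, the lipid-sensing receptor LXR-alpha, gave 74.0, 43.7 and 45.1 in WT replicates 1, 2 and 3, 71.4, 85.9 and 18.2 in KO and 22.1, 28.7 and 22.0 in SHP099. KO replicate 3 and the SHP099 libraries were low and KO replicates 1 and 2 overlapped with WT, and the log2 fold change was -1.10 (limma adjusted p = 0.0331). Klf2, a factor that restrains inflammatory genes, gave 6.52, 7.59 and 11.4 in WT replicates 1, 2 and 3, 12.6, 8.49 and 17.5 in KO and 18.3, 18.6 and 21.8 in SHP099. It was higher in SHP099 than in every WT and KO library, at 1.14 (limma adjusted p = 0.0236). Spi1, which encodes PU.1, and Cebpb, the most abundant, had -0.094 and -0.61 (limma adjusted p = 0.672 and 0.0567). The median of the list was -0.094. In KO against WT and in SHP099 against KO, limma called 0 genes of these 5 lists at either threshold; the lists, in the order given, had 1, 2, 3, 1 and 1 genes at an unadjusted p under 0.05 in the former and 4, 4, 4, 5 and 6 in the latter, against 10.5% and 12.6% of all genes.

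The genes most like the 3 chosen receptors were ranked by Pearson r of log2(FPKM + 1) over the 9 libraries, which share groups, so r is a description. The ranking included KO replicate 3, so its place in these genes follows from how they were chosen. Mrc1 was most like Napsa, Itga5 and F7, at r = 0.984, 0.980 and 0.978. Itga5, an integrin subunit, gave 217, 212 and 202 in WT replicates 1, 2 and 3, 213, 214 and 123 in KO and 107, 110.4 and 109 in SHP099, with KO replicate 3 beside the SHP099 libraries as for Mrc1. Olr1 was most like Bhlhe40, Csf2rb and Slc12a4, at r = 0.991, 0.991 and 0.987. Csf2rb, the shared receptor chain for GM-CSF, gave 479, 427 and 388 in WT replicates 1, 2 and 3, 356, 391 and 227 in KO and 205, 153 and 181 in SHP099, again with KO replicate 3 lowest in its group. Cd36 was most like Polg2, Srf and Pkmyt1, at r = 0.965, 0.965 and 0.946, and Srf gave 22.7, 18.1 and 16.4 in WT replicates 1, 2 and 3, 19.9, 19.6 and 17.5 in KO and 14.5, 13.8 and 13.4 in SHP099. As for Cd36, KO replicate 3 stayed near its group.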

How the data were processed

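RNA from peritoneal macrophages of 9 libraries was sequenced after poly-T selection. The authors deposited FPKM per Ensembl gene; per the labels, CASAVA 1.8, HISAT2 2.0.4 and HTSeq 0.9.1 were used, with genome build and strand setting not stated. Symbols and positions came from GENCODE M21, GRCm38 (353 of 54059 identifiers unmatched). The filter kept 11450 genes (mean FPKM 1 or more over 9 libraries), log2(FPKM + 1) was fitted with limma 3.58.1 in R 4.3.3 (eBayes with trend, 6 libraries per comparison), and p-values were adjusted by Benjamini-Hochberg over all genes. The fit was tested on simulated data, but no outcome is given here and nothing is read from it. Whole reads were recovered from FPKM, the mean length of the annotated transcripts and the step of each library; within 0.05 of a whole read lay 96.2% to 96.7% of values up to 50 reads. The receptor genes and lists were chosen with earlier results of these data known. Named genes were the receptors, Ptpn11, chromosome neighbours within 100 kb, genes of each list with an adjusted p of at most 0.05, its 2 most abundant and 2 most changed, and the 3 genes most like Mrc1, Olr1 and Cd36. Itgax and other markers were named after their values were seen. Alternatives covered pseudocount, filter, scaling, fit and each library left out. A deposited table of assembled gene spans holds no measurement and was not used.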

Additional observations from a re-analysis of the deposited data

How the results depend on the processing

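Over the 6 receptor genes not chosen on their values, limma called 0 in each comparison and under each alternative, except 2 with adjusted p up to 0.05 in SHP099 against WT and 1 without KO replicate 3 in SHP099 against KO (0 to 1 with each library left out). Over all 9, with the genes chosen on their values, SHP099 against WT gave 2, which is no test and says nothing of stability; the alternatives gave 0 (no filter on low FPKM, eBayes without trend, all 9 libraries in 1 fit, replicate block), 4 (adjusted p up to 0.05) or again 2, and leaving out each library gave 0 to 2 there and 0 to 3 in SHP099 against KO. With a replicate block, Clec4e in SHP099 against WT had a limma adjusted p of 0.0804, and calls over all genes went from 19 to 0. Same-numbered libraries deviated at r = -0.0411, -0.0896, 0.454 there and 0.492, -0.431, 0.185 in KO against WT. Not every library correlated best with its own number. With so few libraries and values of mixed sign, whether the numbers pair the samples cannot be decided. Over all genes, SHP099 against WT gave 19 calls (15 lower), 4 without trend, 9 by voom, 197 with adjusted p up to 0.05, 14 (13 lower) with median-of-ratios scaling and 16 (15 lower) with quantile normalization. It gave 0 with no filter, 4, 5 and 26 without WT replicates 1, 2 and 3, and 0 without any 1 of the SHP099 replicates. KO against WT gave 1 call, 3 with median-of-ratios scaling, 2 with all 9 libraries in 1 fit, 9 with adjusted p up to 0.05, and 0 with no filter, without trend, with the block and without any 1 library. SHP099 against KO gave 0, 1 with all 9 libraries, 7 with adjusted p up to 0.05 and 159 without KO replicate 3. List genes were not refitted under the alternatives.

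Signs turned as follows, and the cause was not tested. In KO against WT, Mrc1 ranged over -0.50 to 0.41, Marco over -0.22 to 1.27 and Clec4d over -0.15 to 0.31 with each library left out; Mrc1 was 0.0014 without WT replicate 1, and Clec4d was -0.031 with median-of-ratios scaling. With WT replicate 2 and KO replicate 3 both left out, chosen after seeing the data, Mrc1 was 0.33, Clec4d -0.14 and Marco, positive again, 0.37, and 0 receptor genes were called. In SHP099 against KO, Clec4n ranged over -0.15 to 0.27. The depth limits Cd163 most, with 5 to 125 recovered reads; the other receptor genes had at least 693.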

Other observations

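Within the macrophage markers, Csf1r, the receptor for macrophage colony-stimulating factor, gave 58.2, 67.8 and 111 in WT replicates 1, 2 and 3, 87.4, 71.8 and 176 in KO and 181, 211 and 206 in SHP099; it was named after its values were seen. Its SHP099 libraries lay above every WT and KO library, with KO replicate 3 next. The log2 fold change of Csf1r in SHP099 against WT was 1.38. Itgax, also named after its values were seen, had -2.23. These values are a description and carry no test, since the genes were named with their values known.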
